A study of Mus musculus with 9 samples.

Results

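The genes described here are 48 genes for fibroblasts and for the part of the extracellular matrix that is not collagen, followed in pancreatic neuroendocrine tumors of INS-p25OE mice and in normal mouse islets. They were listed by name and comprise 8 elastic fibre genes, 7 adhesive and matricellular glycoproteins, 6 proteoglycans, 8 basement membrane genes, 3 crosslinkers, 6 proteases, 3 protease inhibitors, 3 fibroblast markers and 4 mural cell genes. All 48 were among the 54347 genes counted, and 47 were among the 15532 genes with enough counts to be tested. INS-p25OE mice carry Ins2-rtTA, a tetracycline-controlled activator driven by the insulin promoter, and tetOp-p25GFP, which yields the Cdk5 activator p25 fused to GFP when doxycycline is given in the drinking water. The transgene was thus driven in insulin-producing cells, while most of the genes described here are known as products of stromal cells. RNA was sequenced from 3 functional tumors (M1 to M3, with Inulin in their titles), 3 non-functional tumors (M4 to M6) and C57BL/6 islets (NI1 to NI3), with 1 library per sample. M2 came from a female and the other samples from males, so sex cannot be told apart from anything particular to M2. Per the study's methods, all mice had a C57BL/6 background, young were given doxycycline from weaning on, and littermates without the transgenes shared their cages and were the normal animals. Whether the sequenced islets came from such littermates and the ages at collection were not given in the sources used here, and nothing states whether an islet sample came from 1 animal or from a pool, so p-values measure the spread between these samples.

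The extracellular matrix holds tissue together and controls which growth factors reach a cell. Fibroblasts lay down interstitial matrix, made of elastic fibres, fibronectin and small leucine-rich proteoglycans, while the basement membrane, built from laminins and nidogen, lies under epithelium and around capillaries and islets. Lysyl oxidases crosslink the matrix, metalloproteinases cut it and TIMPs inhibit them, and mural cells (pericytes and smooth muscle) wrap the vessels.

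Before any comparison, the libraries were checked against their labels. Cdk5r1 encodes p35, the protein from which p25 is cut. Cdk5r1 stood at 292, 201 and 401 CPM (TMM-scaled counts relative to the library's size) in M1 to M3, 169, 149 and 341 CPM in M4 to M6 and 279.6 CPM in the library labelled NI1, while NI2 held 18.4 CPM and NI3 held 12.5 CPM. Values listed for a group follow the order of its library numbers. The value in the library labelled NI1 goes against its label, so the counts and medians of the gene groups against islets are given with and without it, as are the log2 fold changes of genes whose call it changed. Between 36468280 and 63637175 reads were counted per library, and 3 counts, taken as the floor of detection, stood for 0.0425 to 0.119 CPM. Mitochondrial transcripts held 32.1% of the counts in M4 and 1.76% to 8.41% in the other libraries. Beta cell markers (10 genes) summed to 122400 to 365700 CPM in islets and 18880 to 117200 CPM in tumors, and Ins1, Ins2 and Iapp held most of this sum. Of the 10, 7 had a lower mean in tumors and 3 a higher one (Mafa, Nkx6-1 and Pdx1), and 0 were called with all 9 libraries.

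M6 and the library labelled NI1 were the most alike of all 36 pairs of libraries. Pearson's r of log2(CPM + 1) across the 15532 tested genes was 0.988 for this pair, 0.975 for NI2 and NI3, and 0.945 for M1 and M3, the next pair. These correlations run across genes, which are not independent replicates, and are given as a description. Over the 48 matrix and fibroblast genes, the median absolute log2 difference was 0.19 between M6 and the library labelled NI1 and 0.35 between NI2 and NI3. M6 lay within 1.5-fold of the library labelled NI1 for 41 of the 48 genes. For the other tumors this number was 4 (M4) to 13 (M1 and M2), and for NI2 and NI3 it was 25 and 19. A chi-square test of counts gave 44.8 per gene for this pair, the smallest of the 36 (148 for NI2 and NI3, the next), which is above counting noise but does not show that they came from separate tissue. The 2 libraries were not alike on genes of the dissociation response (11 genes, Fos among them). These summed to 119.5 CPM in M6 and 667 CPM in the library labelled NI1. The sum was 108 to 187 CPM over all tumors, 2738 CPM in NI2 and 1385 CPM in NI3, so the library labelled NI1 lay above every tumor. M6 and the library labelled NI1 were kept as separate samples because their labels differ.

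**Figure D1:**
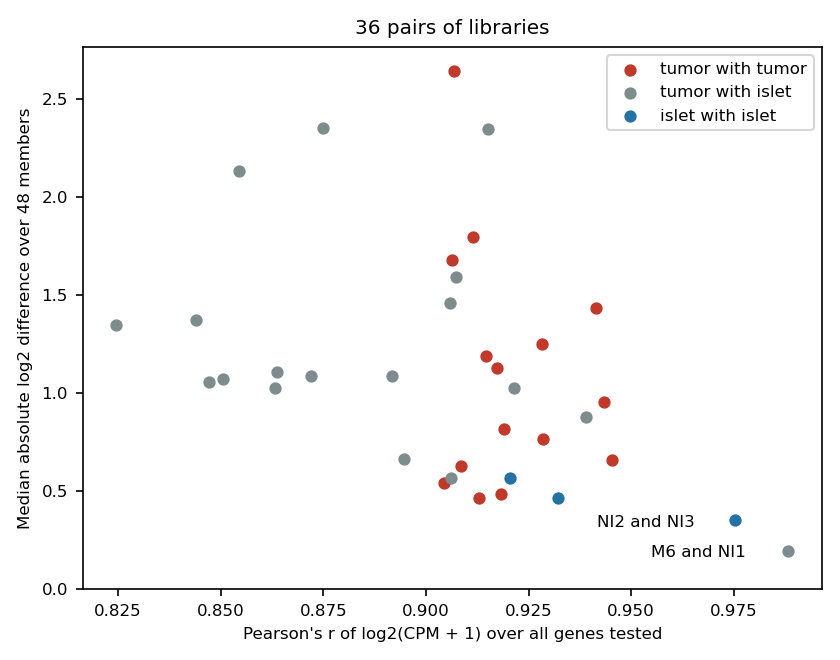
Each point is a pair of libraries, with Pearson's r across 15532 tested genes on the horizontal axis and the median absolute log2 difference over the 48 matrix and fibroblast genes on the vertical axis; colors mark pairs of tumors (red), of islets (blue) and of a tumor with an islet library (grey). The pair of M6 and the library labelled NI1 lies at the lower right, at 0.988 and 0.19, beyond the islet pair NI2 and NI3 at 0.975 and 0.35.

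The matrix and fibroblast genes ordered the tumors in much the same way. M4 had the highest value of the 6 tumors for 41 of the 48 genes, M6 the lowest for 37, and both held for 35. The summed level of the 48 genes was 3310, 2550 and 3281 CPM in M1 to M3, 6499, 2785 and 1749 CPM in M4 to M6 and 1852, 1733 and 1591 CPM in islets. M6 thus lay inside the range of the islets on this sum, and the other 5 tumors lay above it. Gene by gene, the median log2 difference from the islet mean, on log2(CPM + 1), was 1.03, 1.16 and 1.26 in functional tumors and 2.37, 0.96 and -0.11 in M4, M5 and M6, while over all tested genes it stayed between -0.05 and 0.03 in every tumor. M6 was below all 3 islet libraries for 20 genes and above all 3 for 15. M1, M2, M3 and M5 were all above the 3 islet libraries for 27 genes, and M4 was above them for 43.

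**Figure D2:**
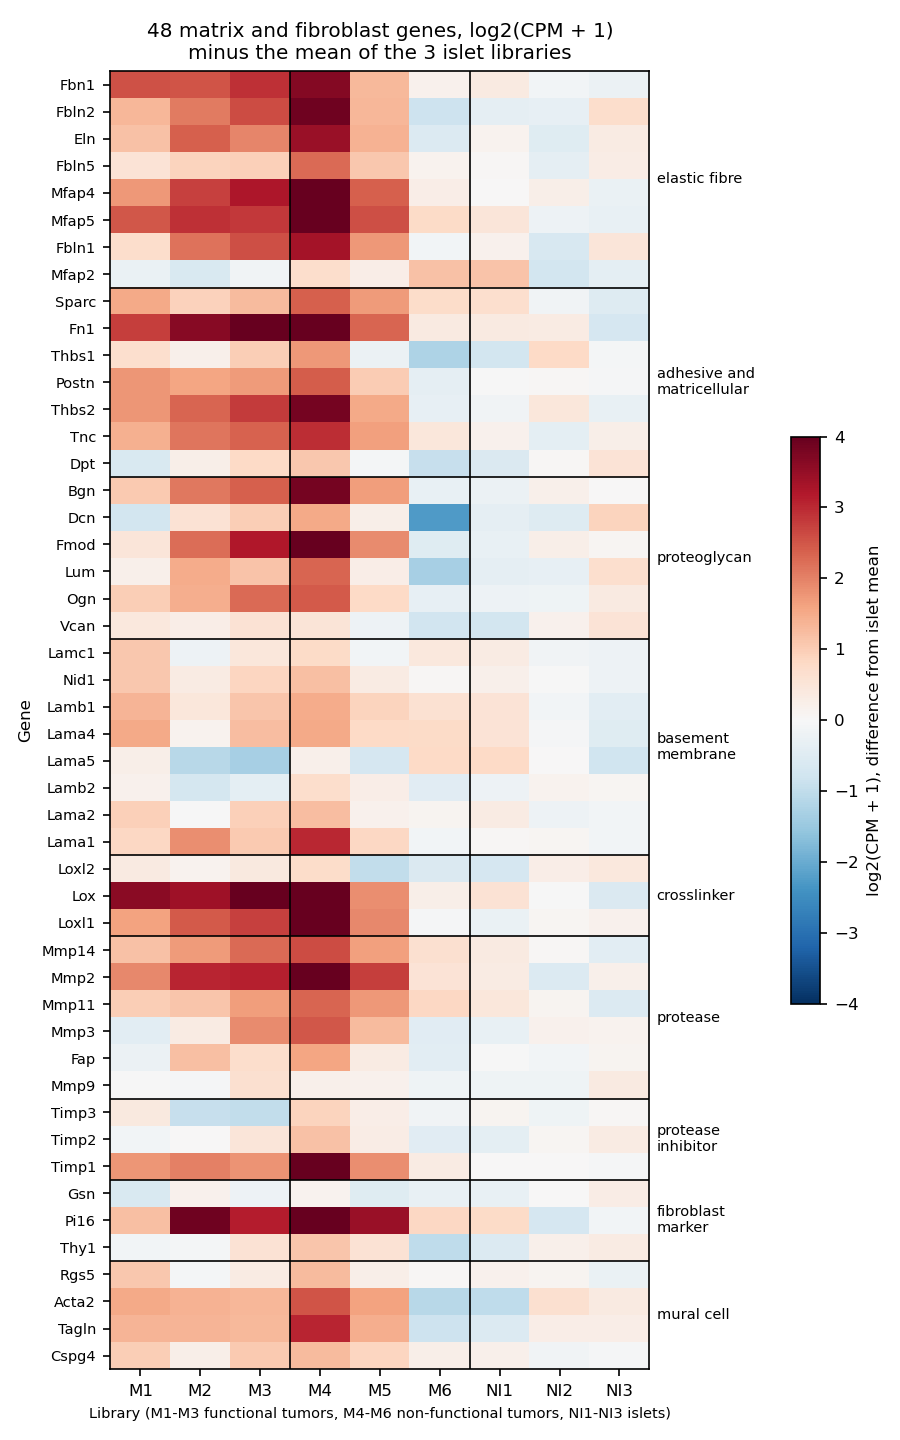
Each cell is the log2(CPM + 1) of a gene (vertical axis, ordered by role) in a library (horizontal axis) minus the mean of the 3 islet libraries; red is higher, blue is lower, and the color is capped at 4 in either direction. M4 holds the darkest red for most genes, while M6 and the 3 islet libraries stay pale, with medians of -0.11 in M6 and 2.37 in M4.

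The tumors were compared with the islets as a single group of 6 against 3. With all 9 libraries, 45 of the 47 tested genes had a higher mean in tumors, and the median log2 fold change was 1.46 (0.03 over all 15532 tested genes). By the quasi-likelihood test of edgeR, 0 of the 47 were called at an adjusted p under 0.05, and 0% of all tested genes were called higher and 0.258% lower. Of the 47, 28 had an unadjusted p under 0.05, 28 higher and 0 lower, beside 10.7% of all tested genes higher and 9.14% lower. For 10 genes the lowest tumor exceeded the highest islet library (4.5% of all tested genes did so), and for 0 genes the reverse held (3.17%). This count was 17 without the library labelled NI1, 27 without M6 and 30 without both, where it was 16.6%, 8.02% and 19% of all tested genes. Without the library labelled NI1, 42 of the 47 had a higher mean in tumors and 23 had an unadjusted p under 0.05, all higher (15% of all tested genes higher).

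Those counts changed with single libraries. Without the library labelled NI1, 4 of the 47 genes were called higher (Mfap5, Sparc, Lamb1 and Mmp14), beside 5.34% of all genes called higher in that fit. Without M6, 10 were called (Fbn1, Mfap4, Mfap5, Fn1, Postn, Tnc, Lox, Loxl1, Mmp14 and Mmp2), where 0.519% of all genes were. Without both, 15 were called, where 5.89% of all genes were, and Sparc, Thbs2, Lamb1, Mmp11 and Pi16 joined the 10. With all 9 libraries, DESeq2 called 23, where 4.96% of all genes were called higher, and limma-voom called 0. The median log2 fold change of the 47 genes was 1.45 with the library labelled NI1 left out and 1.62 with M6 left out. Genes called in 1 of these fits were not all called in the others. Of the 10 called without M6, those not called without the library labelled NI1 had an adjusted p there of 0.05996 (Lox) to 0.132 (Postn). Sparc and Lamb1 had 0.0843 and 0.0995 without M6. The filter on low counts was applied anew to each set of libraries. The unadjusted counts by gene role below stand beside 10.7% of all tested genes higher with all 9 libraries and 15% without the library labelled NI1.

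**Figure D3:**
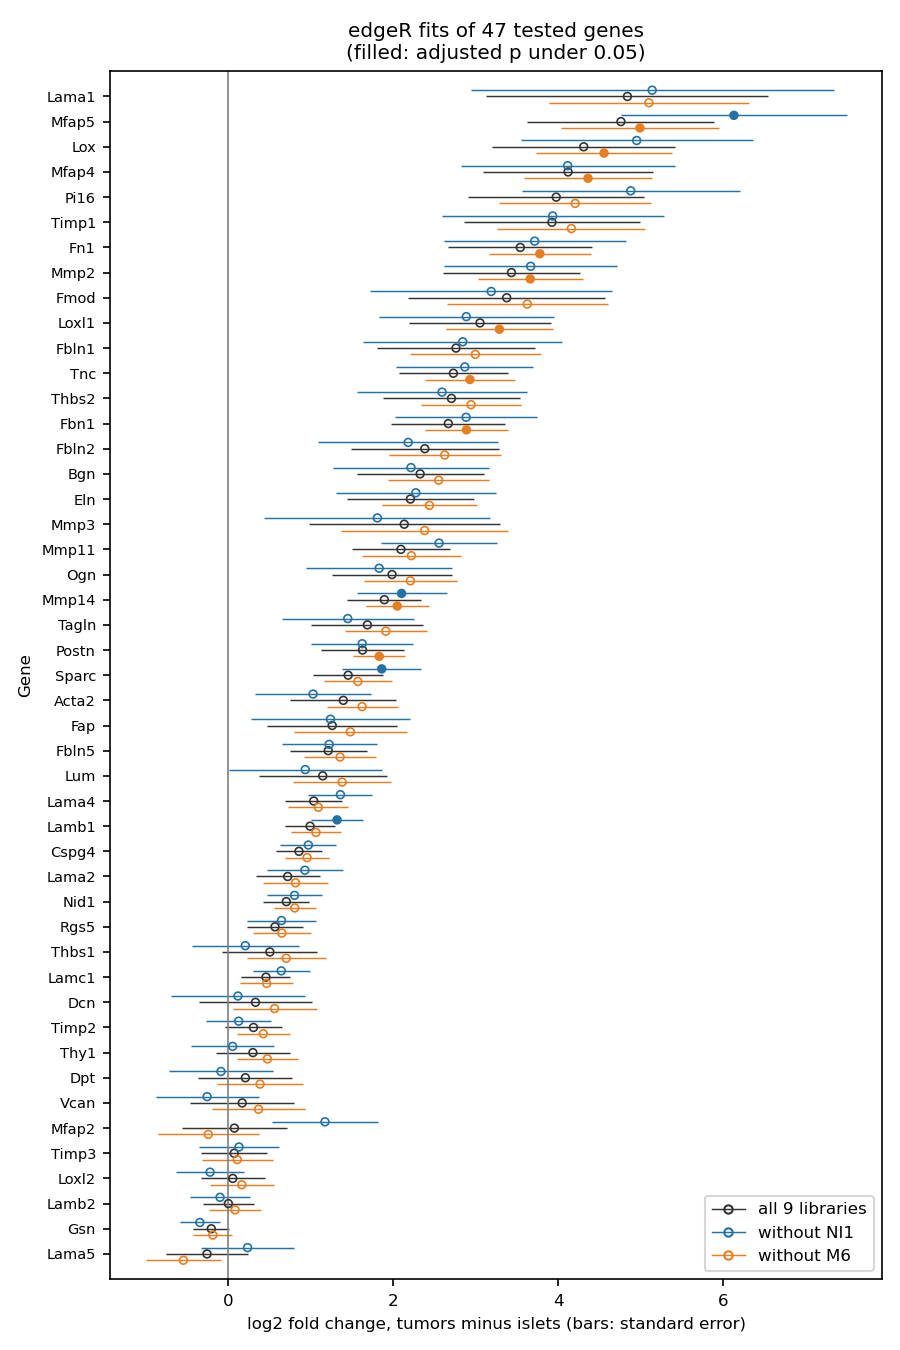
Points give how far tumors exceeded islets, as a log2 fold change, for the 47 tested genes (vertical axis), with the standard error as a bar, from all 9 libraries (black), with the library labelled NI1 left out (blue) and with M6 left out (orange); filled points passed an adjusted p of 0.05. Filled points number 0, 4 and 10 in the 3 fits, and 45 of the black points lie to the right of 0.

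Elastic fibres, which give tissue its recoil, consist of an elastin core on fibrillin microfibrils. Of the 8 elastic fibre genes, 7 had an unadjusted p under 0.05 with all 9 libraries, all higher in tumors, and the median log2 fold change of the 8 was 2.53 (5 genes and 2.56 without the library labelled NI1). Mfap5 (ENSMUSG00000030116, chromosome 6, 122505845 to 122529290), which encodes a microfibril-associated glycoprotein, was at 6.73, 9.34 and 8.67 CPM in the functional tumors, 35.4, 7.25 and 1.30 CPM in the non-functional ones and 0.908, 0.195 and 0.124 CPM in islets. All 6 tumors lay above all islets, with M4 far above the rest and M6 next to the library labelled NI1. Its log2 fold change was 4.76 (SE 1.13, adjusted p = 0.139) with all 9 libraries and 6.13 (SE 1.37, adjusted p = 0.0285) without the library labelled NI1. Without that library, Mfap5 entered the test only through the tumors. Its values in NI2 and NI3 lay near the floor, where 3 counts stand for 0.0732 and 0.0744 CPM, so the size of the change is poorly set. Mfap5 and Mmp14 were the genes called in each of the 3 fits that left out the library labelled NI1, M6 or both.

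Mfap4 (ENSMUSG00000042436, chromosome 11, 61485431 to 61488900), another microfibril-associated protein, was at 4.63, 10.4 and 14.98 CPM in the functional tumors, 36.8, 8.01 and 1.06 CPM in the non-functional ones and 0.720, 1.02 and 0.421 CPM in islets. The groups did not overlap, but M6 exceeded the highest islet library by less than the islets differed among themselves. Its log2 fold change was 4.12 (SE 1.03, adjusted p = 0.145), and 4.37 (SE 0.78, adjusted p = 0.0376) without M6. Fbn1, the gene for fibrillin-1, was at 52.9, 52.2 and 69.6 CPM in the functional tumors, 117, 22.1 and 9.54 CPM in the non-functional ones and 10.8, 7.56 and 6.99 CPM in islets, with a log2 fold change of 2.67 (SE 0.69, adjusted p = 0.148) that became 2.89 (SE 0.50, adjusted p = 0.0353) without M6. M6 lay inside the range of the islets for Fbn1, and the other 5 tumors lay above it. Of the exon bases of Fbn1, 20.1% overlap the gene Gm9913, and the library kit does not mark strand, so reads of these 2 genes cannot be fully told apart.

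Eln, the gene for elastin itself, ran from 4.01 to 80.6 CPM in tumors and 4.25 to 8.35 CPM in islets (log2 fold change 2.21, SE 0.77). For Fbln1, Fbln2 and Fbln5, the fibulins that join elastin to microfibrils and basement membrane, 5 tumors were above all islets and M6 lay within or under the islet range. Fbln2 ran from 4.19 to 135 CPM in tumors and 6.22 to 13.9 CPM in islets (log2 fold change 2.38, SE 0.90). Fbln1 ran from 0.950 to 20.3 CPM in tumors and 0.342 to 1.96 CPM in islets (log2 fold change 2.76, SE 0.96), and Fbln5 ran from 8.45 to 39.5 CPM in tumors and 5.64 to 9.52 CPM in islets (log2 fold change 1.21, SE 0.47). Mfap2, a further microfibril gene, broke the pattern. It was at 2.66, 1.88 and 2.96 CPM in the functional tumors, 6.18, 4.25 and 8.80 CPM in the non-functional ones and 8.72, 1.61 and 2.33 CPM in islets, so that M6 and the library labelled NI1 were the highest of their groups, and its log2 fold change was 0.07 (SE 0.64) with all 9 libraries and 1.17 (SE 0.65) without the library labelled NI1.

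Adhesive and matricellular glycoproteins bind cells to the matrix or modulate that contact. Of 7 such genes, 5 had an unadjusted p under 0.05, all higher in tumors, and the median log2 fold change was 1.63 (5 genes and 1.86 without the library labelled NI1). Sparc (ENSMUSG00000018593, chromosome 11, 55394500 to 55423183), a collagen-binding matricellular protein, had the highest level per exon length of all 48 genes in tumors, at 168 CPM per kb in tumors and 61.1 CPM per kb in islets. It was at 630.4, 413 and 527 CPM in the functional tumors, 1158, 719 and 360.1 CPM in the non-functional ones and 346, 196 and 153 CPM in islets. The groups did not overlap, but M6 and the library labelled NI1 nearly met. The log2 fold change was 1.46 (SE 0.42, adjusted p = 0.159) with all 9 libraries and 1.86 (SE 0.48, adjusted p = 0.0454) without the library labelled NI1.

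Tnc (ENSMUSG00000028364, chromosome 4, 63959785 to 64047015), the gene for tenascin C, was at 4.57, 8.29 and 9.67 CPM in the functional tumors, 15.2, 5.53 and 1.88 CPM in the non-functional ones and 1.34, 0.610 and 1.44 CPM in islets, and again the groups did not overlap. Tnc had a log2 fold change of 2.73 (SE 0.66, adjusted p = 0.141), and 2.93 (SE 0.54, adjusted p = 0.0388) without M6. Fn1, the gene for fibronectin, was at 128, 231 and 363 CPM in the functional tumors, 470.3, 93.4 and 22.8 CPM in the non-functional ones and 23.02, 22.4 and 10.7 CPM in islets. M6 lay inside the islet range and the other 5 tumors were at 93.4 CPM or more. The log2 fold change of Fn1 was 3.54 (SE 0.87, adjusted p = 0.142), and 3.78 (SE 0.62, adjusted p = 0.0342) without M6.

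Postn, the gene for periostin, had islet values close to each other and was at 51.3, 44.9 and 49.03 CPM in the functional tumors, 83.03, 30.4 and 11.01 CPM in the non-functional ones and 14.5, 14.9 and 14.2 CPM in islets. Here M6 was below all islets and the other 5 tumors were at least 30.4 CPM. The log2 fold change was 1.63 (SE 0.50, adjusted p = 0.162), and 1.83 (SE 0.31, adjusted p = 0.0353) without M6. Thbs2, the gene for the angiogenesis inhibitor thrombospondin 2, was at 14.99, 22.6 and 32.01 CPM in the functional tumors, 66.3, 12.6 and 2.75 CPM in the non-functional ones and 3.24, 5.49 and 2.83 CPM in islets. M6 was below all islets and the other 5 tumors above them, and the log2 fold change was 2.71 (SE 0.83, adjusted p = 0.162), and 2.83 (SE 0.74, adjusted p = 0.0481) without M6 and the library labelled NI1. For Thbs2 the adjusted p was 0.147 without the library labelled NI1 alone and 0.05004 without M6 alone. Thbs1, its paralog, overlapped between the groups, with 37.5 to 305 CPM in tumors and 54.2 to 159 CPM in islets and a log2 fold change of 0.51 (SE 0.58). Dpt, the gene for dermatopontin, overlapped as well, with 1.88 to 10.3 CPM in tumors and 2.59 to 6.99 CPM in islets and a log2 fold change of 0.21 (SE 0.57).

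The promoters of 30 of the 48 genes were matched in RefSeq (GRCm38.p6, 250 bases before to 50 bases after the start of the gene) and searched on both strands for 4 short motifs. TATAAA, the core of the TATA box, was found in 6 of the 30 (20%) and in 13.6% of 32851 promoters of the same length. CATTCC, the core bound by TEAD factors, was in 5 (16.7%, against 14.7%). TGANTCA, the AP-1 core, was in 1 (Mmp3; 3.33%, against 7.81%), and the CArG box of serum response factor was in 1 (Lama2; 3.33%, against 1.63%). These matches describe letters in a window and not binding. Of the genes with TATAAA, Postn, Tnc and Thbs2 were called without M6 and the library labelled NI1, and their promoters are printed to show where the match lies, with that of Timp1, for which all tumors lay above all islets, as an example of CATTCC. Capitals mark the match, and sequences are written in the direction of the gene. The match starts 26 bases before the start of Postn (chr3:54360857-54361156, plus strand), 126 bases before that of Tnc (chr4:64046966-64047265, minus strand), 126 bases before that of Thbs2 on the opposite strand (chr17:14694213-14694512, minus strand) and 247 bases before that of Timp1 on the opposite strand (chrX:20869916-20870215, plus strand).
Postn: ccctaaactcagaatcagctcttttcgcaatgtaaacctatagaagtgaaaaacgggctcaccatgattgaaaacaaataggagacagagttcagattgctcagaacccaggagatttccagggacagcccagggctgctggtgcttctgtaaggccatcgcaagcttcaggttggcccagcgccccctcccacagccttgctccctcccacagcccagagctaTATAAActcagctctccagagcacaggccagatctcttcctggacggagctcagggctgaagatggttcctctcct
Tnc: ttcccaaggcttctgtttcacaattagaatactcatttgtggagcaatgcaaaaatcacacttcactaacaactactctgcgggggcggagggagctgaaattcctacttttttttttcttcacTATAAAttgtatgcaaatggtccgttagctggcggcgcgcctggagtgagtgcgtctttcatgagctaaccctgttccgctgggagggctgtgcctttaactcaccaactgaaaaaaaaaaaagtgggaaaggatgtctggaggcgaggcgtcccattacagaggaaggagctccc
Thbs2: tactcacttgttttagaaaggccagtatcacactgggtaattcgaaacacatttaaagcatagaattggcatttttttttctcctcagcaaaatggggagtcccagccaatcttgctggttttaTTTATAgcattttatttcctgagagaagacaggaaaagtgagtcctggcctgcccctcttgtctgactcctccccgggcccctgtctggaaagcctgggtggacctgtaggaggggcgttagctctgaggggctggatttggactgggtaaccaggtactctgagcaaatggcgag
Timp1: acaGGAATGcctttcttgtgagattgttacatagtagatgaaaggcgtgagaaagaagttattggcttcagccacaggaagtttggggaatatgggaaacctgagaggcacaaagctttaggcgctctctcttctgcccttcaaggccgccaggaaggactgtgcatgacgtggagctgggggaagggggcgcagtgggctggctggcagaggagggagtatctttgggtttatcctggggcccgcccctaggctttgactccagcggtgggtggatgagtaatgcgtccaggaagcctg

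Small leucine-rich proteoglycans coat collagen fibrils and set their spacing. Of the 6 proteoglycan genes, 3 had an unadjusted p under 0.05, all higher in tumors, and the median log2 fold change was 1.57. Without the library labelled NI1 only 1 of the 6 did, near the 15% of all tested genes higher in that fit, and the median was 1.38. Bgn, the gene for biglycan, had the third highest level per exon length of the 48 genes in tumors, at 40.5 CPM per kb in tumors and 8.06 CPM per kb in islets. It was at 103, 213 and 259.5 CPM in the functional tumors, 709, 158 and 39.5 CPM in the non-functional ones and 41.4, 56.6 and 49.4 CPM in islets, with M6 under all islets and the other 5 tumors above them, and its log2 fold change was 2.33 (SE 0.77, adjusted p = 0.168). Fmod, the gene for fibromodulin, had one of the widest spreads, with 3.93, 15.8 and 31.6 CPM in the functional tumors, 96.5, 12.2 and 1.53 CPM in the non-functional ones and 1.89, 3.15 and 2.73 CPM in islets. Its log2 fold change was 3.38 (SE 1.19).

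Ogn, the gene for osteoglycin, ran from 1.13 to 13.8 CPM in tumors and 1.34 to 2.45 CPM in islets (log2 fold change 1.99, SE 0.73). Lum, the gene for lumican, ran from 1.34 to 28.3 CPM in tumors and 3.56 to 8.30 CPM in islets (log2 fold change 1.15, SE 0.78), and Dcn, the gene for decorin, from 5.51 to 88.3 CPM in tumors and 20.7 to 57.2 CPM in islets (log2 fold change 0.33, SE 0.69). Dcn was one of the 7 genes for which M6 and the library labelled NI1 differed by more than 1.5-fold, at 5.51 and 23.1 CPM. Vcan, the gene for the large proteoglycan versican, was low everywhere, with 0.528 to 2.89 CPM in tumors and 0.566 to 2.80 CPM in islets, and its log2 fold change of 0.17 (SE 0.63) was smaller than its error.

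Laminins, built from an alpha, a beta and a gamma chain, form the sheet of the basement membrane. Of the 8 basement membrane genes, 4 had an unadjusted p under 0.05, all higher in tumors, and the median log2 fold change was 0.71 (4 genes and 0.87 without the library labelled NI1). Lamb1 (ENSMUSG00000002900, chromosome 12, 31265234 to 31329644), the laminin beta 1 chain, was at 88.2, 47.02 and 74.4 CPM in the functional tumors, 96.8, 64.2 and 52.2 CPM in the non-functional ones and 49.9, 31.4 and 24.9 CPM in islets. Only M2 fell among the islets, just under the library labelled NI1. Its log2 fold change was 0.99 (SE 0.30, adjusted p = 0.161) with all 9 libraries and 1.32 (SE 0.32, adjusted p = 0.0375) without the library labelled NI1.

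Lama1 (ENSMUSG00000032796, chromosome 17, 67697259 to 67822647), the laminin alpha 1 chain, was at 0.927, 2.93 and 1.22 CPM in the functional tumors, 7.65, 0.909 and 0 CPM in the non-functional ones and 0.103, 0.122 and 0 CPM in islets. Lama1 had the highest log2 fold change of the 47 genes, 4.84 (SE 1.71, adjusted p = 0.182). No count was seen in M6 or NI3, where 3 counts would stand for 0.0528 and 0.0744 CPM, and the islet values lay near that floor, so the size of the change is poorly set. Lama4, an endothelial laminin chain, ran from 30.7 to 80.9 CPM in tumors and 19.6 to 40.5 CPM in islets (log2 fold change 1.04, SE 0.35). Nid1, the gene for nidogen-1, which links laminin to collagen IV, ran from 57.5 to 129.7 CPM in tumors and 48.7 to 63.6 CPM in islets (log2 fold change 0.70, SE 0.28).

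The gamma 1 chain gene Lamc1 ran from 66.2 to 165 CPM in tumors and 66.8 to 97.2 CPM in islets (log2 fold change 0.46, SE 0.30), and the alpha 2 chain gene Lama2 ran from 5.26 to 13.8 CPM in tumors and 4.54 to 6.87 CPM in islets (log2 fold change 0.72, SE 0.39). Lama5 (ENSMUSG00000015647, chromosome 2, 180176373 to 180225859), the alpha 5 chain, was at 60.5, 23.4 and 20.1 CPM in the functional tumors, 60.1, 31.8 and 90.5 CPM in the non-functional ones and 90.2, 51.9 and 29.1 CPM in islets. Lama5 had the lowest log2 fold change of the 47, -0.26 (SE 0.50, adjusted p = 0.808). M6 and the library labelled NI1 were the highest of all 9 and almost equal, and the sign of the difference turned without the library labelled NI1, to 0.23 (SE 0.56). Lamb2 (ENSMUSG00000052911, chromosome 9, 108479736 to 108490530), the beta 2 chain, was at 43.1, 23.4 and 28.96 CPM in the functional tumors, 63.02, 45.8 and 27.4 CPM in the non-functional ones and 33.1, 42.4 and 40.2 CPM in islets, with both groups overlapping throughout and a log2 fold change of 0.00 (SE 0.31, adjusted p = 0.998).

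Of the 3 crosslinkers, which join matrix fibres covalently, 2 had an unadjusted p under 0.05, both higher in tumors, and the median log2 fold change was 3.05 (2 genes and 2.89 without the library labelled NI1). Lox (ENSMUSG00000024529, chromosome 18, 52516067 to 52529867), the gene for lysyl oxidase, was at 27.2, 22.8 and 36.5 CPM in the functional tumors, 74.2, 7.37 and 1.69 CPM in the non-functional ones and 2.42, 1.27 and 0.545 CPM in islets. M6 lay between the library labelled NI1 and NI2, and the other 5 tumors lay above all islets. Its log2 fold change was 4.31 (SE 1.11, adjusted p = 0.148), and 4.56 (SE 0.82, adjusted p = 0.0388) without M6. Loxl1, the lysyl oxidase-like enzyme tied to elastin, was at 9.27, 17.1 and 21.1 CPM in the functional tumors, 56.5, 11.7 and 2.25 CPM in the non-functional ones and 1.80, 2.54 and 2.75 CPM in islets, with M6 within the islet range, and had a log2 fold change of 3.05 (SE 0.86, adjusted p = 0.151) with all 9 libraries and 3.29 (SE 0.64, adjusted p = 0.0426) without M6. Loxl2, a further enzyme of the family, overlapped between the groups at 16.2 to 55.4 CPM in tumors and 20.3 to 44.1 CPM in islets (log2 fold change 0.05, SE 0.39).

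Of the 6 matrix proteases, 5 could be tested, and 3 of these had an unadjusted p under 0.05, all higher in tumors, with a median log2 fold change of 2.10 (3 genes and 2.10 without the library labelled NI1). Mmp14 (ENSMUSG00000000957, chromosome 14, 54431612 to 54445364), a membrane-bound metalloproteinase that activates pro-MMP2, was at 19.97, 29.5 and 44.6 CPM in the functional tumors, 56.1, 28.4 and 13.7 CPM in the non-functional ones and 10.9, 8.81 and 6.07 CPM in islets. All tumors lay above all islets. The log2 fold change was 1.89 (SE 0.45, adjusted p = 0.139) with all 9 libraries, 2.10 (SE 0.55, adjusted p = 0.0460) without the library labelled NI1 and 2.05 (SE 0.38, adjusted p = 0.0393) without M6.

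Mmp2 (ENSMUSG00000031740, chromosome 8, 92827291 to 92853420), the gelatinase that MMP14 activates, was at 12.5, 28 and 29.7 CPM in the functional tumors, 76.4, 23 and 4.15 CPM in the non-functional ones and 3.46, 1.44 and 3.10 CPM in islets, again without overlap. Mmp2 had a log2 fold change of 3.44 (SE 0.83, adjusted p = 0.141), and 3.66 (SE 0.64, adjusted p = 0.0353) without M6. Mmp11 (ENSMUSG00000000901, chromosome 10, 75923222 to 75936496), the gene for stromelysin-3, was at 3.22, 3.57 and 5.83 CPM in the functional tumors, 9.79, 6.14 and 2.80 CPM in the non-functional ones and 1.89, 1.32 and 0.446 CPM in islets, also without overlap, with a log2 fold change of 2.10 (SE 0.60, adjusted p = 0.151), and 2.69 (SE 0.70, adjusted p = 0.0466) without M6 and the library labelled NI1. For Mmp11 the adjusted p was 0.056 without the library labelled NI1 alone and 0.0879 without M6 alone.

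The remaining proteases were near the limit of the filter. Mmp3, the gene for stromelysin-1, ran from 0.211 to 8.24 CPM in tumors and 0.343 to 0.878 CPM in islets (log2 fold change 2.13, SE 1.16). Fap, a serine protease of activated fibroblasts, ran from 0.334 to 4.28 CPM in tumors and 0.659 to 0.942 CPM in islets (log2 fold change 1.26, SE 0.79). Mmp9, the other gelatinase, was not tested because it reached 1 CPM in only 1 library, and ran from 0.334 to 1.34 CPM in tumors and 0.342 to 0.942 CPM in islets.

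TIMPs bind and block metalloproteinases. Of the 3 inhibitor genes, 1 had an unadjusted p under 0.05, Timp1, and the median log2 fold change was 0.31 (1 gene and 0.13 without the library labelled NI1). Timp1 (ENSMUSG00000001131, chromosome X, 20870166 to 20874735) was at 4.25, 5.25 and 4.45 CPM in the functional tumors, 31.7, 4.62 and 0.968 CPM in the non-functional ones and 0.566, 0.586 and 0.520 CPM in islets. All tumors lay above all islets, M6 by the least, and M4 was 31.7 CPM where the next tumor was 5.25 CPM. The log2 fold change was 3.93 (SE 1.07, adjusted p = 0.151). Timp3, a matrix-bound inhibitor that was abundant in all libraries, ran from 129 to 486 CPM in tumors and 233 to 282 CPM in islets (log2 fold change 0.07, SE 0.40), and Timp2 ran from 34.3 to 109.5 CPM in tumors and 35.9 to 59.9 CPM in islets (log2 fold change 0.31, SE 0.34). Of the exon bases of Timp3, 21.3% overlap the gene Syn3, whose reads cannot be fully told apart from it.

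Of the 3 fibroblast markers, 1 had an unadjusted p under 0.05, Pi16, and the median log2 fold change was 0.30 (1 gene and 0.05 without the library labelled NI1). Pi16 (ENSMUSG00000024011, chromosome 17, 29317680 to 29330593), a marker of adventitial fibroblasts, was at 4.41, 34.5 and 19.9 CPM in the functional tumors, 64.6, 24.8 and 3.25 CPM in the non-functional ones and 3.05, 0.488 and 1.21 CPM in islets. All tumors lay above all islets, with M1 and M6 close to the library labelled NI1, and the log2 fold change was 3.98 (SE 1.07, adjusted p = 0.149), and 5.12 (SE 1.08, adjusted p = 0.0243) without M6 and the library labelled NI1. For Pi16 the adjusted p was 0.0527 without the library labelled NI1 alone and 0.0579 without M6 alone. In fits without the library labelled NI1, Pi16 entered the test only through the tumors. Gsn (ENSMUSG00000026879, chromosome 2, 35256380 to 35307892), the gene for the actin-severing protein gelsolin, which many cell types make, was at 78.7, 134 and 103 CPM in the functional tumors, 132, 86.4 and 98.2 CPM in the non-functional ones and 97.7, 121 and 146 CPM in islets, with full overlap and a log2 fold change of -0.21 (SE 0.22, adjusted p = 0.622). Thy1, a surface glycoprotein of fibroblasts that neurons and T cells also carry, ran from 5.21 to 25.96 CPM in tumors and 7.54 to 14.8 CPM in islets (log2 fold change 0.30, SE 0.45).

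Of the 4 mural cell genes, 2 had an unadjusted p under 0.05, both higher in tumors, with a median log2 fold change of 1.13. Without the library labelled NI1 only 1 of the 4 did (15% of all tested genes higher), and the median was 1.00. Cspg4 (ENSMUSG00000032911, chromosome 9, 56865033 to 56899870), the gene for the pericyte proteoglycan NG2, was at 27.98, 16.1 and 29.5 CPM in the functional tumors, 34.1, 25.8 and 16.1 CPM in the non-functional ones and 15.9, 12.2 and 13.1 CPM in islets. The groups did not overlap, but M2 and M6, both at 16.1 CPM, lay just above the library labelled NI1 at 15.9 CPM. The log2 fold change was 0.86 (SE 0.28, adjusted p = 0.168). Acta2, the gene for smooth muscle actin, was at 73.3, 68.1 and 64.3 CPM in the functional tumors, 148, 78.7 and 11.1 CPM in the non-functional ones and 11.98, 40.1 and 32.3 CPM in islets (log2 fold change 1.4, SE 0.65), with M6 and the library labelled NI1 the lowest of the 9 libraries.

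Tagln, the gene for the smooth muscle protein transgelin, ran from 9.41 to 153 CPM in tumors and 11.6 to 21.3 CPM in islets (log2 fold change 1.69, SE 0.68), with the same 2 libraries lowest. It shares 67.9% of its exon bases with Pcsk7 and Gm48529, so its counts are uncertain. Rgs5, a pericyte marker, had the second highest level per exon length in tumors and the highest in islets, at 118 CPM per kb in tumors and 79.8 CPM per kb in islets, and ran from 342 to 868 CPM in tumors and 302 to 402 CPM in islets (log2 fold change 0.57, SE 0.34).

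**Figure D4:**
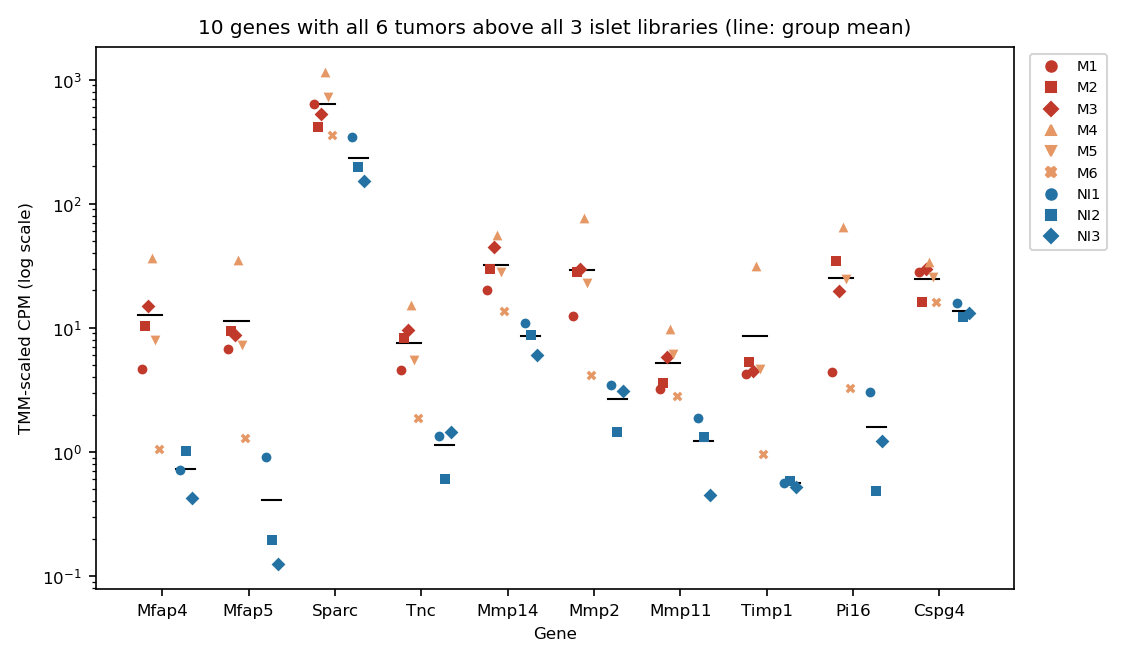
TMM-scaled CPM on a log axis for the 10 genes whose lowest tumor exceeded the highest islet library; red marks functional tumors, orange non-functional tumors and blue islets, with a marker shape per library and a line at each group's mean. M4 is the highest tumor for all 10, and the cross for M6 is the lowest for all 10, close to the islets (for Sparc, 360.1 CPM against 346 CPM in the library labelled NI1).

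Several of these genes entered the test only because of the tumors. Mfap4, Lama1, Mmp3, Fap and Timp1 did not reach 1 CPM before scaling in any islet library, and would not have been tested had the tumors been as low. Among the 42 genes that reached it in an islet library, 25 had an unadjusted p under 0.05 and the median log2 fold change was 1.31 (20 genes and 1.34 without the library labelled NI1). Of these 42, edgeR called 0 with all 9 libraries and 4 without the library labelled NI1 (5.34% of all genes). It called 9 without M6 (0.519%) and 14 without both (5.89%), and DESeq2 called 20 with all 9 libraries (4.96%). Of these 42, Mfap5 and Pi16 reached 1 CPM before scaling only in the library labelled NI1. Without that library they too entered the test only through the tumors. Mfap5 was among the 4 called, and both were among the 14. Mfap4 and Timp1 were also among the 10 genes whose groups did not overlap. With no filter, all 48 genes had a value, 29 had an unadjusted p under 0.05, 0 were called, and the smallest adjusted p was 0.0663.

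Functional and non-functional tumors were each set beside the same 3 islet libraries, so these comparisons share their controls. In functional tumors, 24 of the 47 genes had an unadjusted p under 0.05, all higher (11.3% of all genes higher), with a median log2 fold change of 1.29 and 0 called (0.0451% of all genes). In non-functional tumors, 26 did, all higher (8.27% of all genes), with a median of 1.51 and 0 called (0% of all genes). DESeq2 called 13 in functional and 15 in non-functional tumors (5.02% and 1.57% of all genes). Without the library labelled NI1, Mfap5 alone was called in each, at 5.66 (SE 1.39, adjusted p = 0.0458) in functional and 6.49 (SE 1.44, adjusted p = 0.0484) in non-functional tumors, where 5.16% and 2.88% of all genes were called higher. Mfap5 stood at 0.195 CPM in NI2 and 0.124 CPM in NI3, near the floor, and entered this fit only through the tumors. In that fit 17 genes in functional and 20 in non-functional tumors had an unadjusted p under 0.05, all higher (15.3% and 14.4% of all genes), with medians of 1.345 and 1.68.

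Between functional and non-functional tumors, no gene of the 47 was called, nor was any of the 15532 (0% in either direction), and DESeq2 also called 0 of the 47 (0.143% of all genes higher and 0.577% lower). None of the 47 had an unadjusted p under 0.05 with all 9 libraries (4.71% of all genes higher and 5.58% lower). Of the 47, 13 were higher and 34 lower in functional tumors, with a median log2 fold change of -0.23. The smallest adjusted p was 0.500, for Mfap2, with a log2 fold change of -1.36 (SE 0.64). Without M6, 44 of 47 were lower in functional tumors and the median was -0.68. Most genes were thus lower either way, but the number lower and the size of the differences moved with a single tumor. In that fit 4 of the 47 had an unadjusted p under 0.05, which is near the share of all genes (7.73% lower), and 0 were called.

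The range of values was wider among non-functional than among functional tumors for most of the 48 genes. Over the 48 genes, the median log2 range among 3 libraries was 1.00 for functional tumors, 2.64 for non-functional tumors and 0.76 for islets, on log2(CPM + 1), while over all tested genes it was 0.61, 0.67 and 0.51. The range was wider among non-functional tumors for 41 of the 48 genes (85.4%) and for 54.0% of all tested genes. The median fold of M4 over M6 was 6.24 for the 48 genes and 0.947 for all tested genes. These are descriptions of 3 libraries in each group, and both ends of the non-functional range rest on 1 tumor each.

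The summed levels of stromal cell markers that are not among the 48 genes moved with them. The summed level of 6 fibroblast genes (Col1a1, Col1a2, Col3a1, Pdgfra, Dpep1 and Clec3b) was 691, 844 and 929 CPM in M1 to M3, 1942, 422 and 97.0 CPM in M4 to M6 and 94.2 to 120.7 CPM in islets. M4 was thus highest and M6 lay within the islets on this sum too, but Col1a1, Col1a2 and Col3a1 held most of it. Pdgfra and Dpep1 were also highest in M4, but Pdgfra in M1, at 2.80 CPM, was below all islets (3.17 to 4.51 CPM). Clec3b was highest in M3, at 6.24 CPM, and M4 (1.98 CPM) was below NI3 (2.35 CPM). All 6 of these genes had a higher mean in tumors (median log2 fold change 2.12, and 1.94 without the library labelled NI1), and 0 were called in either fit and 3 without M6 (0.519% of all genes). The summed level of 8 further mural genes was 220.4 to 467 CPM in tumors and 175 to 233 CPM in islets, and all 8 had a higher mean in tumors, or 7 without the library labelled NI1. Of these 8, 0 were called with all 9 libraries or without M6. Without the library labelled NI1, 4 were called higher (Pdgfrb, Mcam, Kcnj8 and Abcc9), where 5.34% of all genes were.

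Markers of other cell types did not all follow the same order. Endothelial markers (10 genes) summed to 430.1 to 1333 CPM in tumors and 1180 to 1287 CPM in islets, and macrophage markers (10 genes) to 482 to 1329 CPM in tumors and 255 to 474 CPM in islets, highest in M4. Of the 10 macrophage markers, 9 had a higher mean in tumors and 1, Ptprc, a lower one. Ptprc had a mean of 21.3 CPM in tumors and 57.6 CPM in islets (log2 fold change -1.44, SE 0.33, adjusted p = 0.137, and 0.0243 without the library labelled NI1). Acinar markers (9 genes, 6 of them at 0 in some library) summed to 0.766 to 206 CPM in tumors and 313 to 5712 CPM in islets, with NI3 highest. Of 4 mesothelial markers, Msln stood at 338 CPM in M2 and at 21.04 CPM or less elsewhere, while Upk3b, Wt1 and Lrrn4 stayed at 4.599 CPM or less in every library, with M2 not the highest. Ductal markers (6 genes) summed to 209 to 699 CPM in tumors and 266 to 297 CPM in islets, most of it Krt7. Of the 5 tested, 3 had a higher mean in tumors and 2 a lower one. Krt19 and Sox9 were higher at an unadjusted p under 0.05 (10.7% of all genes), and 0 were called. Schwann cell markers (8 genes) summed to 78.5 to 139 CPM in tumors and 99.8 to 103 CPM in islets, most of it Mbp, and only 3 of the 8 could be tested. Adipocyte markers (4 genes) stayed at 2 CPM or less. Genes of the dissociation response (11 genes) stood at 108 to 187 CPM in tumors and 667 to 2738 CPM in islets, with the library labelled NI1 the lowest islet. With all 9 libraries 9 of these 11 were called lower in tumors, where 0.258% of all tested genes were. The part of these cells or of the mitochondrial share in M4 in the values of the matrix genes was not tested. Any difference in tissue handling between tumors and islets cannot be told apart from tumor against islet. In bulk RNA, fewer cells of a type and less RNA per cell cannot be told apart.

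**Figure D5:**
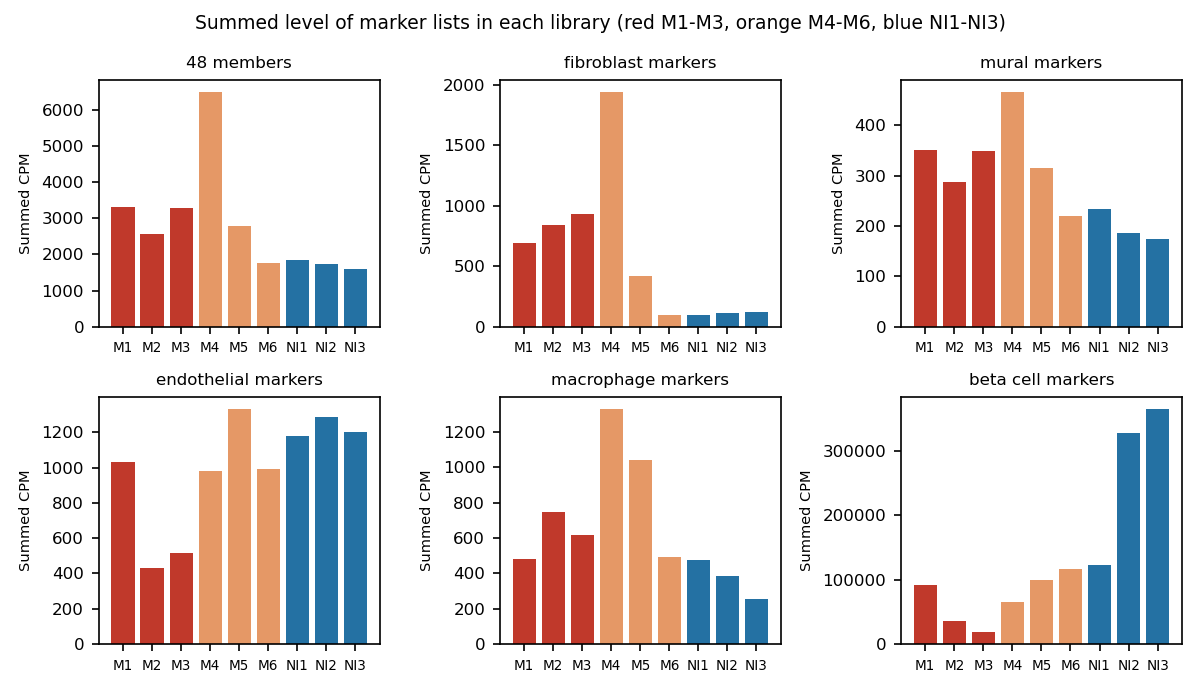
Bars give the summed TMM-scaled CPM of a gene list in each library, for the 48 matrix and fibroblast genes and for lists of fibroblast, mural, endothelial, macrophage and beta cell markers that share no gene with them; red is functional tumors, orange non-functional tumors and blue islets, and each axis starts at 0. The fibroblast list peaks in M4 at 1942 CPM and stands at 97.0 CPM in M6, within the islet range of 94.2 to 120.7 CPM.

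Other matrix genes were read from 3 lists. Of 40 further structural genes, 38 were tested, 27 had a higher mean in tumors, and at an unadjusted p under 0.05 there were 10 higher and 4 lower (median log2 fold change 0.42), beside 10.7% and 9.14% of all tested genes. Of 27 further enzymes and chaperones, 22 were tested, 18 had a higher mean in tumors, and 9 were higher and 0 lower (median 1.11). Of 11 TGF-beta ligands, receptors and mediators, 1 was higher and 1 lower (median 0.12). No gene of these lists was called with all 9 libraries, and 6 enzymes were called higher without the library labelled NI1, where 5.34% of all genes were. In that fit, at an unadjusted p under 0.05, there were 7 higher and 3 lower of 37 structural genes (median 0.61), 12 higher and 0 lower of 22 enzymes and chaperones (median 1.62) and 2 higher and 0 lower of 11 TGF-beta genes (median 0.10), beside 15% of all genes higher.

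The highest log2 fold changes of the 3 lists belonged to Comp (5.31, SE 1.49, adjusted p = 0.152), a thrombospondin family member of cartilage and tendon, its relative Thbs4 (4.91, SE 1.78, adjusted p = 0.189) and the protease Mmp7 (4.75, SE 2.39, adjusted p = 0.298). M4 was the highest library for all 3, at 43.2, 87.4 and 20.3 CPM. Among the lowest were those of the matricellular gene Ccn1 (-1.42, SE 0.54, adjusted p = 0.202) and the elastic fibre gene Emilin1 (-1.10, SE 0.57, adjusted p = 0.309). Emilin1 was highest in M6, at 210.7 CPM, and stood at 188 to 206 CPM in islets and 13.2 to 93.6 CPM in the other tumors.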

How the data were processed

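Total RNA was prepared with a kit that does not mark strand and sequenced as single-end reads. The authors trimmed reads with Trimmomatic 0.38 and quantified transcripts with salmon 1.4.0 against mm10, and deposited the estimated counts of each gene, unscaled whole numbers, in a table titled as TPM. The test planned for counts was therefore used in place of that planned for TPM. The step from transcripts to genes is not given in the sources used here.

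Identifiers were matched to GENCODE for GRCm38 (54094 of 54347). Genes with at least 1 CPM before scaling in at least 3 libraries were kept, scaled by TMM and tested in edgeR 4.0.16 (R 4.3.3) with the two-sided quasi-likelihood test. Benjamini-Hochberg adjustment covered all tested genes, and genes were called at an adjusted p under 0.05. The SE is the absolute log2 fold change divided by the square root of F. All 48 genes are named, and of the further matrix lists the 3 highest and 3 lowest log2 fold changes, of which 1 gene is not reported here. Values of every library are given for the 3 highest and 3 lowest log2 fold changes, for genes called with or without the library labelled NI1, and for genes whose groups did not overlap. Members and lists were chosen with earlier results of these data known. Levels between genes were compared per kb of merged exons. Fits were checked on simulated counts. Alternatives were DESeq2 1.42.0, limma 3.58.1 (voom), other filters and scalings, a replicate block and each library left out. Leaving out M6 or M4 together with NI1 was added after the data were seen.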

Additional observations from a re-analysis of the deposited data

Results flagged for a closer look

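For 8 of the 48 genes, the highest tumor stood apart from the other 5 by Dixon's criterion, and in each case it was M4. The criterion was applied to CPM that were not log-transformed. Chance flags about 1 in 20 groups when values are normally distributed, which such CPM need not be. On log2(CPM + 1), 0 of these 8 genes met the criterion, and 1 other gene of the 48 did. The value of M4 was 35.4 CPM for Mfap5 (next tumor 9.34 CPM), 39.5 CPM for Fbln5 (next 16.9 CPM), 709 CPM for Bgn (next 259 CPM) and 96.5 CPM for Fmod (next 31.6 CPM). It was 56.5 CPM for Loxl1 (next 21.1 CPM), 76.4 CPM for Mmp2 (next 29.7 CPM), 31.7 CPM for Timp1 (next 5.25 CPM) and 153 CPM for Tagln (next 49.8 CPM). The 8 genes share their libraries, so these are not independent observations. Without M4 the median log2 fold change of the 47 tested genes in tumors against islets was 1.12, where it was 1.46 with all libraries.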

How the results depend on the processing

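The median log2 fold change of the 47 tested genes in tumors against islets stayed positive under every alternative run. It ran from 1.12 (without M4) to 1.64 (without NI2) with 1 library left out, and from 1.21 to 1.67 under the others. The number of genes called in tumors against islets ran from 0 to 10 with 1 library left out (10 without M6, 4 without the library labelled NI1), that in functional tumors against islets from 0 to 2, that in non-functional tumors against islets from 0 to 1, and that between functional and non-functional tumors was 0 throughout. In tumors, functional tumors and non-functional tumors against islets, DESeq2 called 23, 13 and 15 (4.96%, 5.02% and 1.57% of all genes higher), DESeq2 without the library labelled NI1 called 21, 17 and 21 (12.4%, 11.4% and 10.7%), and edgeR without M6 and that library called 15, 11 and 17 (5.89%, 5.9% and 5.2%). Without M4 and that library, 3, 5 and 0 were called (4.67%, 4.84% and 1.4%). With no filter, 7 were called in functional tumors (0.608%), and without M4 2 (0.149%). The causes of these differences were not tested.

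Replicate numbers did not pair functional tumors with islets (correlations of deviations -0.05, 0.03 and -0.16). With the number as a replicate block, which leaves the fit to rest on M1 to M3 and the islets, 0 genes were called and the median was 1.24. The signs turned for Mfap2 (-0.36), Lamb2 (-0.32) and Timp3 (-0.52). No paired analysis was possible for non-functional tumors because they share no replicate number with the other groups.

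The other changes of sign were of genes whose log2 fold change with all 9 libraries was at most 0.51 in size. They were Gsn (0.0158) scaled by library totals and, with limma-voom, Dcn (-0.0237), Lamb2 (-0.12) and Timp3 (-0.0529). With DESeq2 and without the library labelled NI1 they were Dpt (-0.0733), Vcan (-0.25), Lama5 (0.23), Lamb2 (-0.0932) and Loxl2 (-0.21). Without M6 and that library they were Vcan (-0.0584), Lamb2 (-0.0181) and Loxl2 (-0.11). Without M4 and that library they were Thbs1 (-0.18), Dpt (-0.37), Dcn (-0.23), Vcan (-0.36), Lama5 (0.16), Lamb2 (-0.29), Loxl2 (-0.38), Timp2 (-0.13), Timp3 (-0.11) and Thy1 (-0.19). With 1 library left out, the log2 fold change ran from -0.32 to 1.17 for Mfap2, -0.20 to 0.11 for Lamb2, -0.18 to 0.22 for Timp3, -0.22 to 0.26 for Loxl2, -0.0883 to 0.60 for Dpt, -0.0173 to 0.95 for Dcn, -0.26 to 0.68 for Vcan and -0.58 to 0.23 for Lama5.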
